A study of Mus musculus with 60 samples.

Results

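Expression of the simple epithelial keratins Krt8, Krt18, Krt7 and Krt19 was measured in 60 skin carcinomas from 55 mice. The members were the 6 probe sets whose single gene symbol is one of these 4 names, of 34958 probe sets with a single symbol, and they stand for 4 of the 18194 genes on the array. Krt8 had 3 of them, and Krt18, Krt7 and Krt19 had 1 each. The mice were FVBBX animals, a backcross of SPRET/Ei and FVB/N parents to FVB/N, so that each mouse carried its own mixture of Mus spretus and Mus musculus alleles. Tumors were raised on the back with the carcinogen DMBA and the promoter TPA, and all groups below share this treatment. There were 13 mice with spindle cell carcinoma and 35 with squamous cell carcinoma (SCC), and 7 mice had no histology label. By the grade labels, the SCCs were well differentiated in 13 mice, moderately in 13 and poorly in 9, while the spindle carcinomas were poorly differentiated in 12 mice and moderately in 1. The p53 label marked 14 mice as mutant and 41 as not mutant. Lymph nodes were labelled positive in 15 mice and negative in 19, and 21 mice had no node label. Mice with fewer than 2 papillomas at 20 weeks are called resistant (17 mice) and those with more than 7 sensitive (16 mice). RNA came from whole tumors, and 5 mice gave 2 tumors, whose values were averaged.

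Keratins are the intermediate filament proteins of epithelial cells. They assemble only as pairs of a type I and a type II chain, so the type II keratins Krt8 and Krt7 need a type I partner such as Krt18 or Krt19. Krt8 and Krt18 form the filaments of single-layered epithelia such as liver and gut, and in normal skin they are found in Merkel cells. Krt7 and Krt19 are keratins of ducts and glands, and Krt19 is also made by cells of the hair follicle bulge. The keratinocytes of the epidermis use Krt5 with Krt14 in the basal layer and Krt1 with Krt10 above it. Krt8 and Krt18 are known to appear in mouse skin tumors as they become malignant.

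Krt8 and Krt18 lie next to each other on chromosome 15 and are read in opposite directions, with their starts 23874 bases apart. Krt7 lies on the same chromosome and Krt19 on another. The 250 bases before the start are shown for Krt8, Krt18 and Krt7, the 3 members with an entry in the promoter set used, which held none for Krt19. These genes are neighbours or share a chromosome and differed in their behaviour below. The sequences are those of RefSeq (build GRCm38.p6), written 5′ to 3′ on the strand of the gene. They span chr15:102004343-102004592 on the minus strand for Krt8, chr15:102027966-102028215 on the plus strand for Krt18 and chr15:101412153-101412402 on the plus strand for Krt7. Capitals mark matches on either strand to 5 motifs: TATAAA (the TATA box), GGGCGG (the GC box), TGANTCA (the AP-1 site), CAGGTG (the E-box form read by Snail and Zeb repressors) and CCGGAAG (an Ets site).
Krt8: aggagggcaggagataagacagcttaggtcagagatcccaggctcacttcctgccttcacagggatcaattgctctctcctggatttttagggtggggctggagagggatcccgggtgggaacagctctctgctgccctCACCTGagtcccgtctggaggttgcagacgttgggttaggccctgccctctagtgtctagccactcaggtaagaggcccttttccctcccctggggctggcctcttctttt
Krt18: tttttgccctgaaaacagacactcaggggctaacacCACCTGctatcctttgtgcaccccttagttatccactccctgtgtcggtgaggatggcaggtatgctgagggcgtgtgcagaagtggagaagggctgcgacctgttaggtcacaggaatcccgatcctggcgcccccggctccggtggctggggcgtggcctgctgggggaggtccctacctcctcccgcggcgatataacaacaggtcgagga
Krt7: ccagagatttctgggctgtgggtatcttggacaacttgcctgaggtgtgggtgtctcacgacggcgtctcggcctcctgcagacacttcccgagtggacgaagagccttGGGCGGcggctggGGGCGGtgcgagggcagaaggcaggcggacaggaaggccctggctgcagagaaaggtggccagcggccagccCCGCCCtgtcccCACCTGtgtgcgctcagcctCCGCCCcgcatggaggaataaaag
Krt8, Krt18 and Krt7 each held 1 match to CAGGTG, a motif found in 17.2% of the 32851 promoter windows of this length. The match began 111 bases before the start in Krt8, 214 bases before it in Krt18 and 44 bases before it in Krt7. Krt7 also held 4 matches to GGGCGG, which 32.7% of the windows contain, and Krt8 and Krt18 held none. No window of the 3 held TATAAA (12.4% of all windows), TGANTCA (6.75%) or CCGGAAG (6.91%). No 2 of the matches overlapped. The GC content was 58.0% for Krt8, 60.4% for Krt18 and 66.0% for Krt7, against a median of 52.4% over all windows.

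Some arrays stood apart before any comparison was made. On 12 arrays (3 spindle, 7 SCC and 2 without histology) the Xist and Y-linked transcripts did not match the sex label. The spindle arrays among them were spindle 8, spindle 9 and spindle 13. The array SCC 18 and 1 array without histology, from different mice, correlated at 0.991 over all probe sets, above the 0.990 of the most alike tumors of the same mouse. The 3′ minus 5′ difference of the Gapdh control probe sets, a measure of RNA integrity, lay between -0.17 and 1.85 (log2). Calls that change without these arrays are given beside their comparison, and signs that change in differences that were not called are given at the end.

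All 4 keratins were among the most variable genes of these tumors. Over the 55 mice the standard deviation of log2 expression was 1.82 for Krt8, 1.39 for Krt18, 2.63 for Krt7 and 2.77 for Krt19, where the median of the 12791 genes tested was 0.387. Krt19 ranked number 9 and Krt7 number 13 of these genes. Krt8 and Krt18 were above the array median on all 60 arrays, Krt7 on 47 and Krt19 on 32. All 4 genes passed the filter on dim genes, which asked for 8 arrays above the array median. The 3 Krt8 probe sets followed each other closely, with correlations of at least 0.997 to the brightest one, which stands for the gene. Levels are not compared between probe sets of different genes.

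Spindle carcinomas differed from SCCs in the keratins they expressed. Krt8 was 3.03-fold higher in spindle carcinomas, while Krt7 and Krt19 differed by -2.72 and -3.07 log2 units of the array value, and the difference of Krt18 did not pass the test. Because Krt7 lay above the array median on only 7 of 14 spindle arrays and Krt19 on only 3, their sizes are differences of array values and not exact folds of the transcripts. In whole-tumor RNA, fewer cells of a type and less RNA per cell cannot be told apart. Values are log2 expression by RMA, differences are spindle minus SCC with standard errors, and adjusted p-values are Benjamini-Hochberg over 12791 genes by limma. In this comparison 26.5% of all genes were called at an adjusted p below 0.05, 15.5% higher and 11.0% lower, against 3 of the 4 keratins, 1 higher and 2 lower.

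Krt8, the type II keratin of simple epithelia, lay between 9.00 and 12.87 with a median of 11.74 in spindle mice, and between 5.42 and 12.39 with a median of 10.21 in SCC mice. The groups overlapped, but 8 of 35 SCC mice were below the lowest spindle mouse and 4 of 13 spindle mice above the highest SCC mouse. The mean was 11.49 ± 1.16 in spindle mice (SD, n = 13) and 9.89 ± 1.95 in SCC mice (SD, n = 35), and 11 of 13 spindle mice were above the SCC median. The difference was 1.60 ± 0.56 (adjusted p = 0.0292, limma). By probe set the difference was 1.60, 1.52 and 1.58. Without the 3 arrays of largest Gapdh difference it was 1.46 and missed the threshold (adjusted p = 0.0568). These were SCC 6 (1.85), SCC 36 (0.59) and spindle 9 (0.54), and SCC 22, which was kept, had 0.48. Leaving out spindle 9, with a Krt8 of 12.12, left its mouse with spindle 8 alone, at 8.96. The parts of RNA integrity and of this unlike pair of tumors in the lost call were not tested.

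Krt18, its type I partner, had an SD of 2.05 among spindle mice and 1.21 among SCC mice, a difference in spread that was not tested. It lay between 5.29 and 12.41 with a median of 11.02 in spindle mice, and between 7.47 and 12.06 with a median of 9.96 in SCC mice. All 35 SCC mice fell inside the spindle range. The difference was 0.15 ± 0.47 with a 95% interval of -0.79 to 1.09 (adjusted p = 0.848, limma). The lowest Krt18 value of all mice, 5.29, belonged to the mouse spindle 14, whose Krt8 value was 10.16. The next lowest spindle mouse, spindle 5, was at 7.76, inside the SCC range.

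Krt7, the type II keratin of ducts, lay between 3.53 and 9.30 with a median of 5.97 in spindle mice, and between 4.10 and 12.61 with a median of 9.24 in SCC mice. Of 35 SCC mice, 17 were above the highest spindle mouse, and 12 of 13 spindle mice were below the SCC median. The mean was 5.73 ± 1.96 in spindle mice (SD, n = 13) and 8.45 ± 2.61 in SCC mice (SD, n = 35). Krt7 fell by 2.72 ± 0.77 in spindle mice (adjusted p = 0.00728, limma).

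Krt19, a type I keratin of ducts and the follicle bulge, was below the array median in most spindle tumors. It lay between 3.37 and 5.96 with a median of 3.62 in spindle mice, and between 2.99 and 11.87 with a median of 7.00 in SCC mice. All 13 spindle mice were below the SCC median, and 22 of 35 SCC mice were above the highest spindle mouse. It was above the array median on 3 of 14 spindle arrays and on 25 of 38 SCC arrays. Krt19 fell by 3.07 ± 0.81 in spindle mice (adjusted p = 0.00413, limma).

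**Figure D1:**
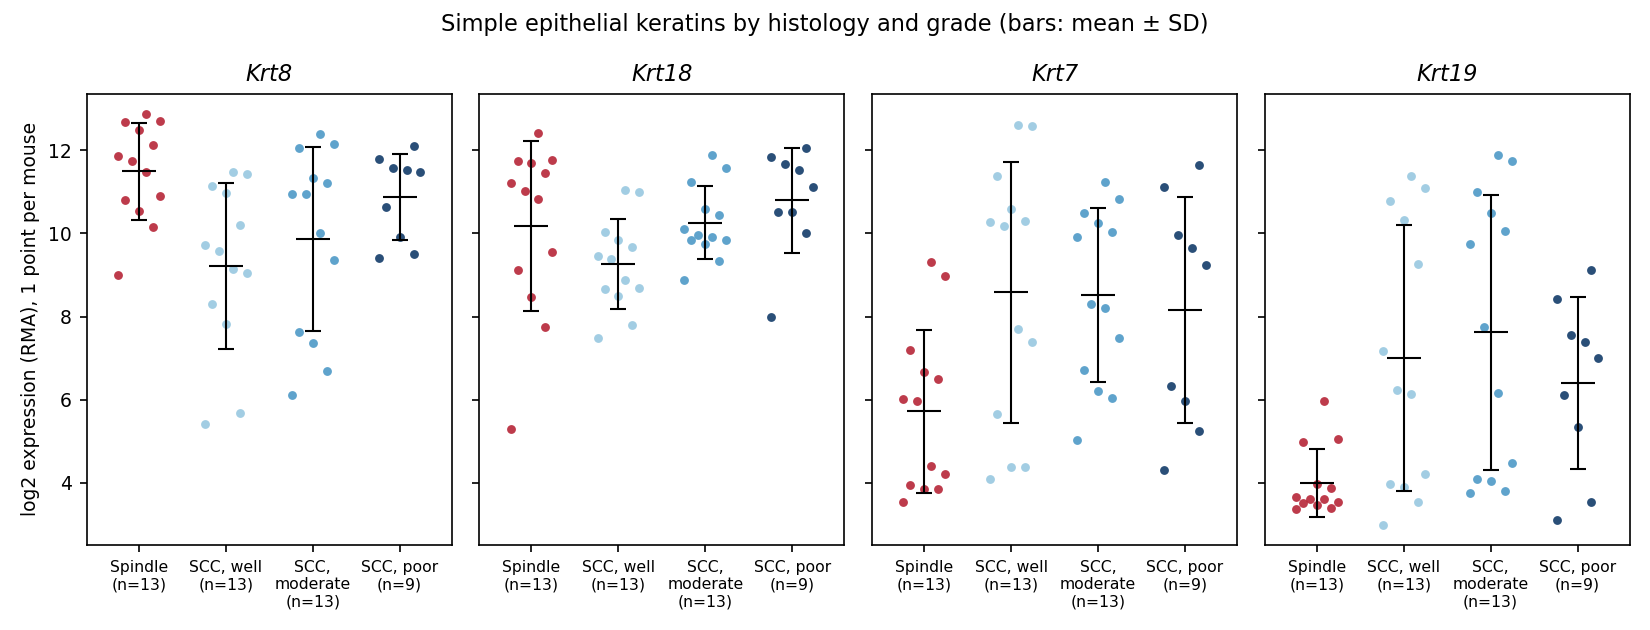
Log2 expression (RMA, vertical axis) of Krt8, Krt18, Krt7 and Krt19 in spindle carcinomas (red, n = 13 mice) and in well (n = 13), moderately (n = 13) and poorly (n = 9) differentiated SCCs (blues), with 1 point per mouse and bars for the mean ± SD. Krt8 is high in spindle tumors, Krt7 and Krt19 are low there, and Krt7 and Krt19 spread over a wide range within each SCC grade.

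The labelled histology was also visible in lists of other markers, of which the squamous list includes the keratins Krt5 and Krt14. Of 9 squamous identity markers tested, 8 were lower and none higher in spindle tumors, with a median difference of -2.02, where the median of all genes was 0.025. Trp63, the master regulator of stratified epithelium, fell by 2.71 and the basal integrin Itgb4 by 1.16. The mean level of the squamous list ran between 5.56 and 11.59 in spindle mice and between 5.26 and 11.50 in SCC mice. Of 19 mesenchymal markers, 8 were higher and 2 lower, with a median of 0.45, and Vim rose by 1.23 and Zeb1, a repressor of epithelial genes, by 1.44. The mesenchymal mean ran between 9.17 and 10.50 in spindle mice and between 7.94 and 10.49 in SCC mice. Of the 10 Merkel cell markers, which include Krt20, 4 were above the filter and none passed the test, and their mean ran between 3.36 and 5.13 in spindle mice and between 3.29 and 4.98 in SCC mice. Of 9 macrophage markers, 2 were higher and none lower, with a median of 0.53 and a mean level between 8.17 and 10.44 in spindle mice and between 7.22 and 10.30 in SCC mice. Of 7 neutrophil markers, 4 were lower and none higher (median -0.69), with a mean level between 7.10 and 9.94 in spindle mice and between 7.85 and 10.15 in SCC mice. Of 4 adipocyte markers tested, 2 were lower and none higher (median -0.91). The mean of all 6 adipocyte markers ran between 4.97 and 6.34 in spindle mice and between 5.24 and 9.04 in SCC mice. The part of cell composition in the keratin differences was not tested.

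Set beside the rest of the keratin family, Krt8 was 1 of 2 keratins called higher in spindle tumors. The array held 48 genes with a keratin symbol, of which 40 passed the filter. Of these, 2 were higher (Krt8 and Krt76) and 15 lower in spindle mice, and 23 did not pass the test, with a median difference of -0.29. Krt76, a keratin of the palate, passed the filter on 13 arrays and averaged 5.19 in spindle mice and 3.86 in SCC mice, a difference of 1.33 (adjusted p = 0.0287, limma). All 3 basal keratins were lower, with differences of -2.45 for Krt5, -2.10 for Krt14 and -2.17 for Krt15. The stress keratins Krt6a, Krt6b, Krt16 and Krt17, which epidermis makes on injury, fell by 2.08 to 2.58. Krt13 and Krt4, the pair of mucosal lining epithelia, fell by 4.17 and 3.17. Of the other keratins of simple or glandular epithelium, Krt23 fell by 2.06 and Krt80 by 1.48, and Krt20 differed by 0.43 ± 0.46 (adjusted p = 0.525, limma). The suprabasal Krt1 and Krt10 differed by 0.67 ± 0.79 and 0.16 ± 0.65, and neither passed the test.

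**Figure D2:**
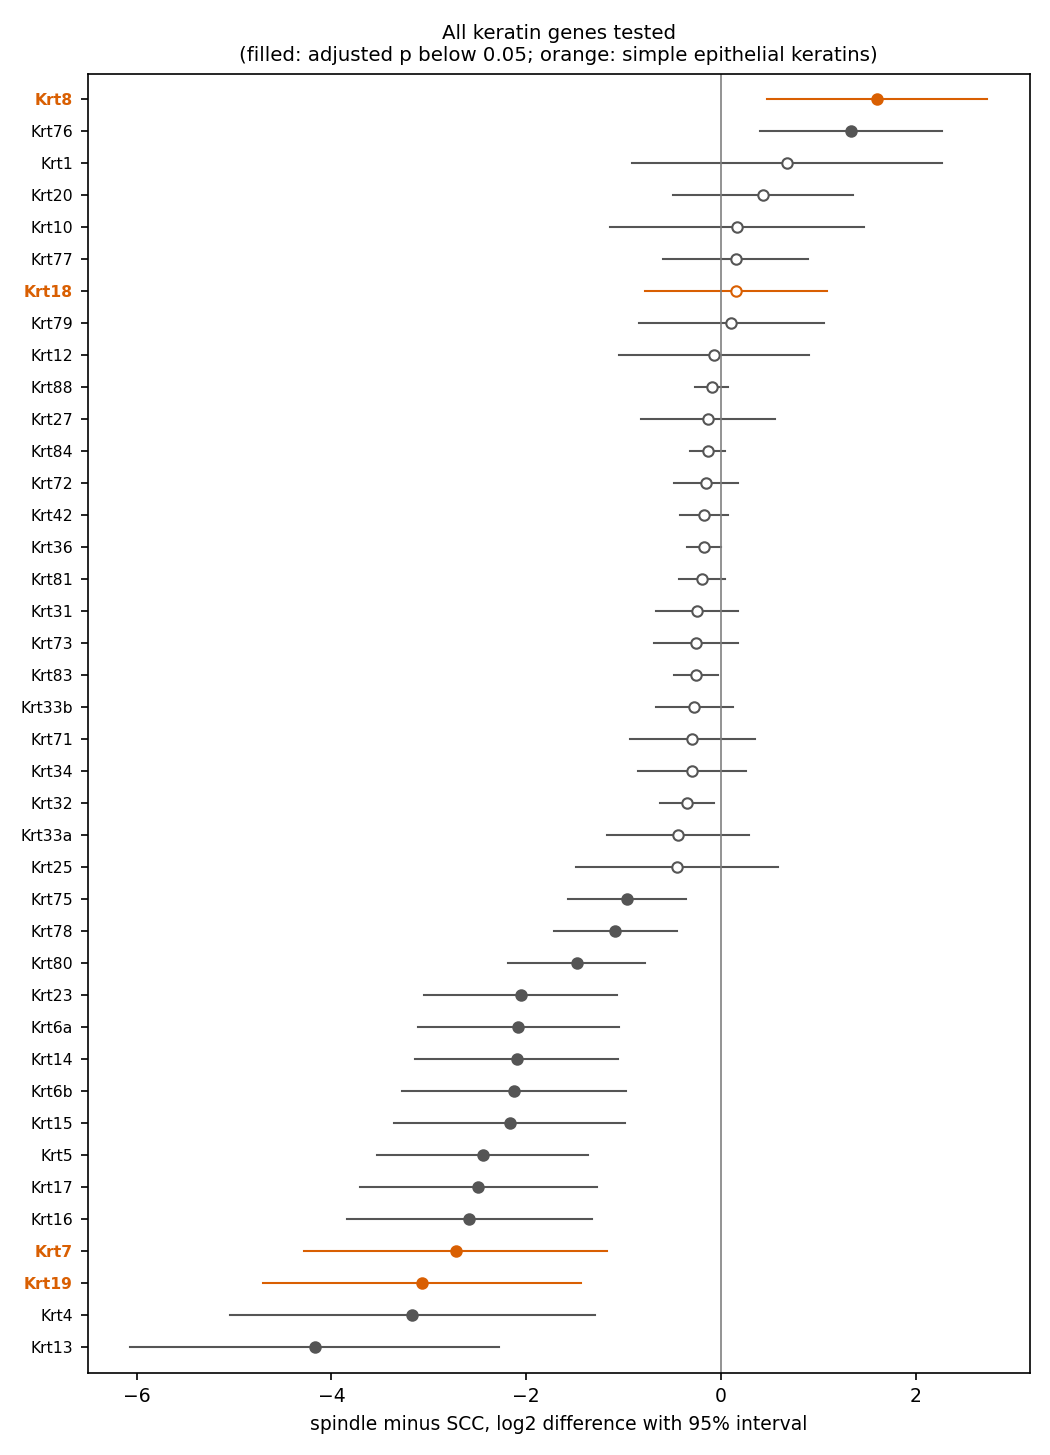
Spindle minus SCC log2 difference (horizontal axis, with 95% confidence interval) of the 40 keratin genes tested, ordered by size, with the simple epithelial keratins in orange and filled points for an adjusted p below 0.05. Krt8 and Krt76 lie to the right, Krt18 near 0, and Krt7 and Krt19 far to the left.

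Proteins that bind or anchor keratin filaments were mostly lower in spindle tumors. Of 18 linker and binding proteins, 11 were lower and 1 higher, with a median of -1.04. The desmosomal proteins Dsp and Pkp1 differed by -2.16 and -2.17, and Plec, which ties keratin and vimentin filaments to other structures, rose by 0.56. Of 6 other intermediate filament genes tested, Vim, Lmna and Nes rose (1.23, 0.53 and 0.43). Of 15 epithelial surface genes and epithelial regulators, not confined to simple epithelia, 12 were lower and none higher. Among them were the adhesion molecule Epcam (-2.25), the tight junction claudin Cldn4 (-2.28) and the splicing regulator Esrp1 (-2.20). Of 15 AP-1 and Ets factors, 4 were lower and none higher. The epithelial Ets factor Ehf fell by 2.43 and Junb and Atf3 differed by -0.53 and -0.66, and the fourth was the Ets factor Elf3.

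The deposited labels include a tumor_class of 1 or 2, whose meaning is not given in the sources used here. Class 1 held 8 of 13 spindle mice and 3 of 35 SCC mice, and 1 mouse of each histology gave a tumor of each class. With this label as a covariate, those mice taking the class of their first tumor, the differences were 1.07 for Krt8, -0.63 for Krt7 and -1.49 for Krt19, none passed the test (adjusted p = 0.818, 0.901 and 0.817, limma), and 0 genes were called in all (limma, 817 at an unadjusted p below 0.05). Without the mice of both classes the differences were 1.20, -0.66 and -1.60, again with 0 genes called (715 below 0.05). Histology and this label overlap strongly but not fully, as 4 spindle mice were class 2 and 3 SCC mice class 1. In each mouse that gave a tumor of each class, Krt7 was lower in the class 1 tumor, as given below for tumors of the same mouse. The parts of histology and of this label in the differences were not tested further.

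Within SCC, the means of Krt8 and Krt18 were highest in poorly differentiated tumors, but no gene passed the test for grade. Krt8 averaged 9.23 ± 2.00 in well, 9.86 ± 2.20 in moderately and 10.88 ± 1.04 in poorly differentiated SCCs (SD, n = 13, 13 and 9). Krt18 averaged 9.27 ± 1.08, 10.26 ± 0.87 and 10.80 ± 1.26 in the same order. Poor minus well, the difference was 1.53 ± 0.44 for Krt18 and 1.66 ± 0.79 for Krt8 (adjusted p = 0.889 for each, limma, unadjusted p = 0.0014 and 0.0428 from the same model). Krt18 was above the well median in 8 of 9 poor mice, and Krt8 in 7 of 9. In this comparison 0% of 12791 genes were called by limma, 687 had an unadjusted p below 0.05, and a SAM-type statistic called 1 gene. By size the 2 keratins ranked number 38 and 28 of all genes, and both were among the genes of widest spread, which tend to rank high by size.

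The range of Krt8 differed between grades. Well differentiated tumors lay between 5.42 and 11.47, moderate ones between 6.11 and 12.39, and poor ones between 9.42 and 12.11. Of 13 well differentiated SCC mice, 6 were below the lowest poor one, and 5 of 9 poor ones were above the highest well differentiated one. For Krt18, 5 of 9 poor mice were likewise above the highest well differentiated mouse. A difference in spread was not tested.

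Moderate minus well, Krt18 differed by 0.99 ± 0.40 and Krt8 by 0.64 ± 0.71, and 0% of genes were called (limma, 318 with an unadjusted p below 0.05). Poor minus moderate, Krt8 differed by 1.02 ± 0.79 and Krt18 by 0.54 ± 0.44, again with 0% of genes called (1089 below 0.05). Krt7 averaged 8.58 ± 3.15, 8.52 ± 2.08 and 8.16 ± 2.72 from well to poor, and Krt19 7.00 ± 3.19, 7.62 ± 3.31 and 6.40 ± 2.07. Their intervals for poor minus well, -2.68 to 1.84 and -3.13 to 1.93, leave room for large differences either way.

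Set against poorly differentiated SCCs alone, spindle carcinomas had lower Krt7 and Krt19 values, although this comparison of fewer mice called no gene. Krt19 averaged 4.00 ± 0.81 in spindle mice (SD, n = 13) and 6.40 ± 2.07 in poor SCC mice (SD, n = 9), a difference of -2.40 ± 0.59 (adjusted p = 0.136, limma). All 13 spindle mice lay below the median of the poor SCC mice, and 6 of 9 poor SCC mice lay above the highest spindle mouse. Krt7 averaged 5.73 ± 1.96 and 8.16 ± 2.72 in these groups, a difference of -2.43 ± 0.94 (adjusted p = 0.198). Krt8 differed by 0.61 ± 0.46 and Krt18 by -0.62 ± 0.73, with intervals of -0.34 to 1.55 and -2.12 to 0.88. In this comparison 0% of genes were called by limma, with 2293 at an unadjusted p below 0.05. Both sets of spindle differences use the same spindle mice.

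**Figure D3:**
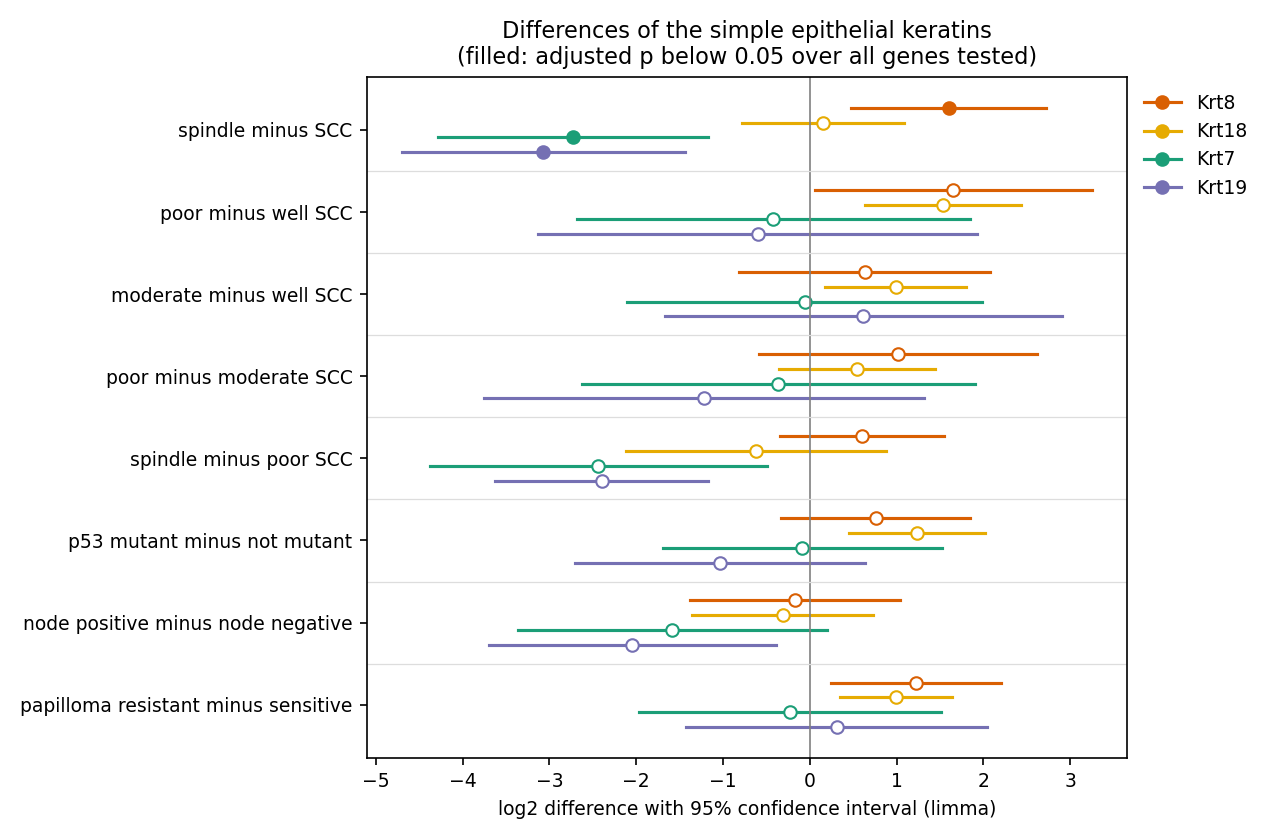
Log2 difference (horizontal axis) of Krt8, Krt18, Krt7 and Krt19 in each of 8 comparisons (rows), with 95% confidence intervals from limma and filled points for an adjusted p below 0.05. The filled points are those of Krt8, Krt7 and Krt19 in spindle minus SCC, and the Krt8 and Krt18 intervals lie above 0 in the rows for poor minus well SCC and papilloma resistant minus sensitive.

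Tumors labelled p53 mutant had Krt18 values at the upper end. Krt18 lay between 9.93 and 12.06 with a median of 11.17 in p53 mutant mice, and between 5.29 and 12.41 with a median of 9.85 in mice not mutant. All 14 mutant mice were above the median of the others, and 22 of 41 mice not mutant were below the lowest mutant mouse. The mean was 11.05 ± 0.76 in mutant mice (SD, n = 14) and 9.81 ± 1.42 in mice not mutant (SD, n = 41). By size the difference of 1.24 ± 0.39 ranked number 12, but genes that spread as widely as Krt18 tend to rank high by size. The difference did not pass limma's threshold (adjusted p = 0.153), with 0.281% of genes called. That share rests on 36 genes, and the count was 4 without the arrays against their sex label, 8 without the 2 near-identical arrays and 20 without the 3 arrays of largest Gapdh difference. A SAM-type statistic placed it past the threshold (adjusted p = 0.0294), over a range of 0.0294 to 0.294 across 14 alternatives.

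The p53 label overlapped with the others: 5 of 9 poor, 2 of 13 moderately and 1 of 13 well differentiated SCC mice were p53 mutant, as were 8 of 17 resistant and 2 of 16 sensitive mice. With the p53 label as a covariate, Krt18 differed by 1.17 for poor minus well and by 0.71 for resistant minus sensitive, and neither passed the test (adjusted p = 0.867 and 0.364, limma). The part of each label in the Krt18 differences was not tested further.

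In SCC mice alone the Krt18 mean was 10.93 ± 0.81 in p53 mutant mice (SD, n = 8) and 9.76 ± 1.18 in mice not mutant (SD, n = 27). In spindle mice it was 11.61 ± 0.26 in p53 mutant mice (SD, n = 4), with values of 11.74, 11.77, 11.22 and 11.70, and 9.54 ± 2.19 in mice not mutant (SD, n = 9). The 11.70 was the mean of the tumors spindle 8 at 11.22 and spindle 9 at 12.17. The p53 difference was 0.89 ± 0.94 larger in spindle than in SCC mice, which did not pass the test (adjusted p = 0.879, limma), nor did the same term for Krt8 (0.11), Krt7 (1.44) or Krt19 (2.62). For that term 0% of genes were called, with 797 at an unadjusted p below 0.05. Over all mice the p53 differences were 0.76 ± 0.54 for Krt8, -0.09 ± 0.80 for Krt7 and -1.03 ± 0.83 for Krt19, and none passed the test.

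Between node groups Krt19 and Krt7 had the largest differences of the 4 keratins, without passing the test. Krt19 lay between 2.99 and 11.08 with a median of 3.98 in node positive mice, and between 3.37 and 11.38 with a median of 6.14 in node negative mice. It averaged 4.76 ± 2.07 in node positive mice (SD, n = 15) and 6.80 ± 2.72 in node negative mice (SD, n = 19), and 12 of 15 node positive mice were below the node negative median. The difference was -2.04 ± 0.82 for Krt19 and -1.58 ± 0.88 for Krt7 (adjusted p = 0.932 for each, limma). In this comparison 0% of genes were called, with 533 at an unadjusted p below 0.05. Krt8 and Krt18 differed by -0.17 ± 0.60 and -0.31 ± 0.51.

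The spindle mice with a node label divided into 4 node positive and 5 node negative. With histology as a covariate the node differences were -2.14 for Krt19 and -1.80 for Krt7. In SCC mice alone Krt19 averaged 4.84 ± 2.40 in node positive mice (SD, n = 10) and 7.68 ± 2.59 in node negative mice (SD, n = 14), and Krt7 6.84 ± 2.59 and 9.30 ± 2.61. These SCC differences did not pass the test either (-2.84 and -2.47, adjusted p = 0.451 for each, limma).

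Mice resistant to papillomas had higher Krt8 and Krt18 values than sensitive mice, again short of the threshold. Krt18 lay between 7.99 and 11.83 with a median of 10.86 in resistant mice, and between 7.76 and 11.03 with a median of 9.61 in sensitive mice. Krt8 lay between 7.63 and 12.87 with a median of 11.52 in resistant mice, and between 6.11 and 11.87 with a median of 9.82 in sensitive mice. For each gene 15 of 17 resistant mice were above the sensitive median. The differences were 0.99 ± 0.31 for Krt18 and 1.23 ± 0.48 for Krt8 (adjusted p = 0.508 and 0.553, limma), with 0% of genes called and 1055 at an unadjusted p below 0.05. Krt7 and Krt19 differed by -0.22 ± 0.86 and 0.31 ± 0.85.

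The 7 mice without a histology label enter no histology comparison. Their Krt8 lay between 10.86 and 12.30, Krt18 between 9.93 and 11.67, Krt7 between 5.40 and 10.50 and Krt19 between 3.56 and 7.64.

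Tumors of the same mouse could lie far apart. In the mouse that gave spindle 8 and spindle 9, Krt7 was 3.89 in the first tumor and 10.53 in the second, and Krt8 8.96 and 12.12. Both of these arrays went against their sex label, and whether they came from the labelled mouse was not tested. In another mouse, without a histology label, Krt7 was 4.11 and 8.81 and Krt8 12.31 and 9.82. Over the 5 mice with 2 tumors, the absolute difference ran between 0.40 and 6.64 for Krt7, 0.40 and 3.15 for Krt8, 0.017 and 2.09 for Krt18, and 0.22 and 2.02 for Krt19. For Krt7 it was 6.64, 4.71 and 2.66 in the mice that gave a tumor of each tumor_class, and 0.40 and 0.85 in those whose tumors shared a class. Where the classes differed, the class 1 tumor had the lower Krt7 each time, while Krt8 went either way. The part of this label was not tested within mice.

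Within each histology Krt8 went with Krt18, its neighbour and partner, and Krt7 with Krt19, while no relation across these pairs passed the test. Correlations were computed in spindle and SCC mice apart (6 pairs of genes in each, 12 relations), with 100000 permutations and Benjamini-Hochberg adjustment over the 12. Krt7 and Krt19 had a Pearson r of 0.73 in spindle mice (rho = 0.52, n = 13) and 0.68 in SCC mice (rho = 0.69, n = 35), with permutation p = 0.00656 and 6e-05 for r (adjusted 0.0262 and 0.00072) and p = 0.0728 and 3e-05 for rho (adjusted 0.175 and 0.00036). Without the 2 mice farthest from the median of Krt7, r was 0.29 in spindle and 0.65 in SCC mice, so in spindle mice the relation rests on those 2. Many SCC mice lay toward either the low or the high end of both genes, and the relation within each end was not tested. Krt8 and Krt18 had an r of 0.68 in spindle mice (rho = 0.74) and 0.51 in SCC mice (rho = 0.54), with permutation p = 0.0103 and 0.00217 for r (adjusted 0.0308 and 0.013) and p = 0.00572 and 0.00117 for rho (adjusted 0.0229 and 0.00702). Without the 2 mice farthest from the median of Krt8 these were 0.41 and 0.39 and neither passed the threshold (permutation, adjusted p = 0.497 and 0.106), so both rest in part on mice at the ends of the range.

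Of the other 8 relations none passed the threshold. The smallest p was that of Krt8 with Krt19 in SCC mice, r = -0.36 (rho = -0.32, permutation p = 0.0322 and 0.0592, adjusted 0.0773 and 0.175), which was -0.44 without the 2 farthest mice and -0.53 without the arrays that go against their sex label (permutation, adjusted p = 0.0181). Krt18 with Krt7 and Krt18 with Krt19 had r of 0.09 and 0.11 in SCC mice and 0.10 and 0.37 in spindle mice.

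**Figure D4:**
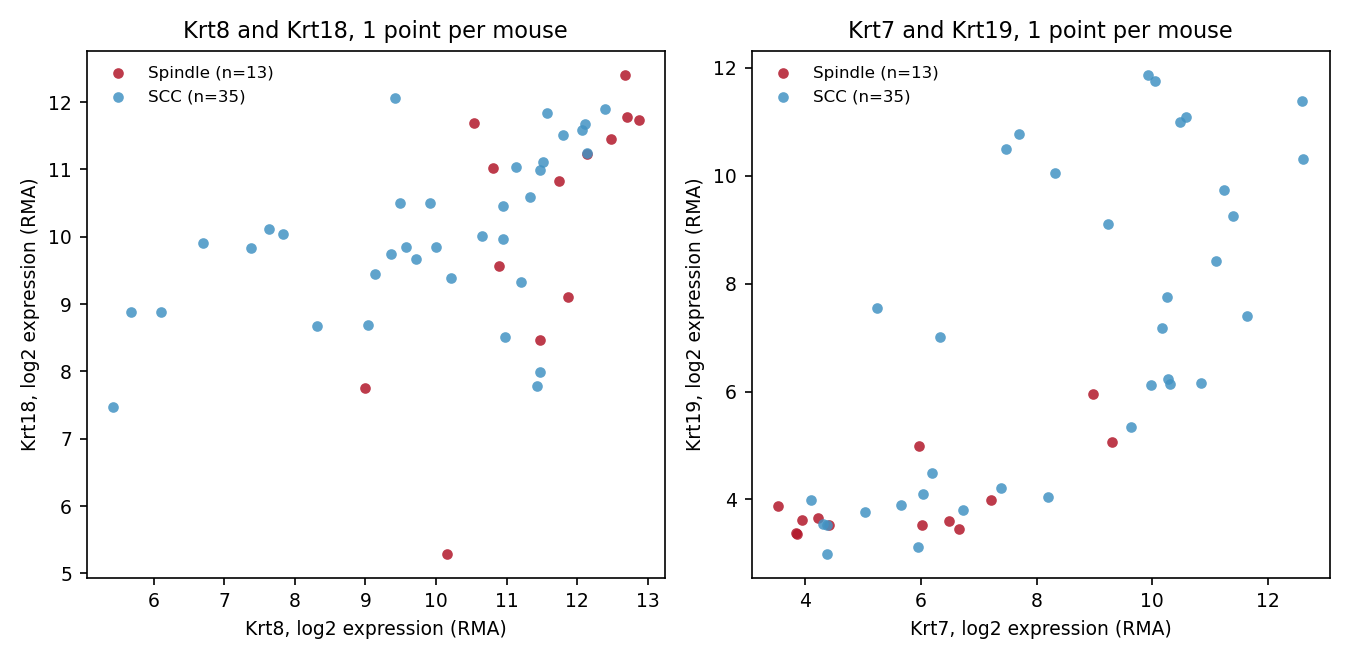
Log2 expression (RMA) of Krt18 against Krt8 (left) and of Krt19 against Krt7 (right), 1 point per mouse, spindle mice in red (n = 13) and SCC mice in blue (n = 35). Krt8 and Krt18 correlate with r of 0.68 in spindle and 0.51 in SCC mice, and the spindle mice gather at low Krt7 and Krt19.

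More relations with epithelial and mesenchymal genes passed by r for Krt7 and Krt19 than for Krt8 and Krt18. Each keratin was set against Cdh1, Epcam, Krt5, Krt14, Trp63, Vim and Zeb1 in spindle and SCC mice, which gave 56 relations. Of these, 33 had a permutation p for r, adjusted over the 56, below 0.05, and fewer passed by rho. Some that passed by r in SCC mice had a small rho, such as Krt7 with Trp63 (r = 0.44, rho = 0.024) and Krt19 with Krt14 (r = 0.33, rho = 0.001). In spindle mice Krt7 went with Epcam (r = 0.81, rho = 0.69), Krt5 (0.82, rho = 0.80) and Cdh1 (0.81, rho = 0.65) and against Vim (-0.83, rho = -0.73), all with an adjusted permutation p for r of 0.00485 or below. By rho, Krt5 and Vim passed (adjusted permutation p = 0.0265 and 0.0421) and Epcam and Cdh1 did not (0.0502 and 0.0721). Without the 2 farthest mice these were 0.70, 0.69, 0.66 and -0.73. In SCC mice Krt7 went with Epcam (r = 0.60, rho = 0.53) and against Zeb1 (-0.59, rho = -0.54), with adjusted permutation p of 0.00056, the smallest 100000 permutations can give here after adjustment, and 0.00205. Krt19 went against Zeb1 and Vim in SCC mice (r = -0.58 for each, rho = -0.61 and -0.49, adjusted permutation p = 0.00238 and 0.0028).

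For Krt8 and Krt18 fewer relations passed. In spindle mice none of their 14 relations passed the threshold, with r between -0.11 and 0.37. In SCC mice Krt8 went with Vim (r = 0.43, rho = 0.38, adjusted permutation p = 0.0239) and Zeb1 (0.39, rho = 0.30, 0.0382), the genes Krt7 and Krt19 went against, although neither passed by rho (adjusted p = 0.0936 and 0.189). Krt18 went with Krt5 in SCC mice (r = 0.47, rho = 0.44, adjusted permutation p = 0.0108 for r and 0.0502 for rho) and with Vim at -0.13. By r it also passed with Trp63 (0.437, rho = 0.231), Epcam (0.415, rho = 0.40) and Krt14 (0.38, rho = 0.215) in SCC mice. Their adjusted permutation p for r was 0.0171, 0.026 and 0.0316, and none passed by rho (0.377, 0.0721 and 0.387). Krt7 had similar r with Krt5, Trp63 and Krt14 in these mice (0.457, 0.439 and 0.424). Whether these correlations differ from one another was not tested.

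The genes most like each keratin over all 55 mice are given as a description, since histology is mixed in them. For Krt8 these were Lamb1 (a laminin chain, r = 0.74), AI467606 (0.73), Samd5 (0.72), Creb3l2 (0.72) and Dok1 (0.71). For Krt18 they were Prss12 (0.64), Nav2 (0.57), Mcpt1 (a mast cell protease, 0.55), Samd5 (0.55) and Slc35d1 (0.55). For Krt7 they were Rab27a (a regulator of vesicle release, 0.88), Psca (0.86), Prss27 (0.86), Elf3 (an epithelial Ets factor, 0.86) and Cblc (0.84). For Krt19 they were Mab21l4 (0.83), Upk3bl (0.83), the basal and bulge keratin Krt15 (0.83), Cda (0.83) and Rab17 (0.82). Samd5 was on the lists of both Krt8 and Krt18. Within SCC mice Rab27a kept an r of 0.89 with Krt7 and Lamb1 0.71 with Krt8.

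Krt8 and Krt18 sit at the end of the type II keratin cluster. Neighbours called higher lay on both sides, and those called lower on the keratin side only. Of the 20 nearest genes on the array, 10 to each side in RefSeq order, 19 passed the filter. Of these, 8 were higher and 2 lower in spindle mice, with a median difference of 0.20. Over all genes 15.5% were higher and 11.0% lower. On the keratin side Krt76 was higher, Krt4 and Krt78 were lower (fell by 3.17 and 1.08), and the others did not pass the test. On the side of Krt18 the insulin-like growth factor binding protein Igfbp6 rose by 2.06, Tns2 by 1.14 and Csad by 0.83. Itgb7 (0.53), Espl1 (0.44), Eif4b (0.38) and Zfp740 (0.34) were also called higher, and no gene on that side was called lower. Rarg, a retinoic acid receptor, differed by 0.13 ± 0.10 and did not pass the test, nor did Spryd3 and Mfsd5. Within SCC mice Krt8 correlated at 0.51 with Krt18, at 0.52 with Tns2 and at -0.61 with Krt78, the keratin on its other side (a description, n = 35).

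**Figure D5:**
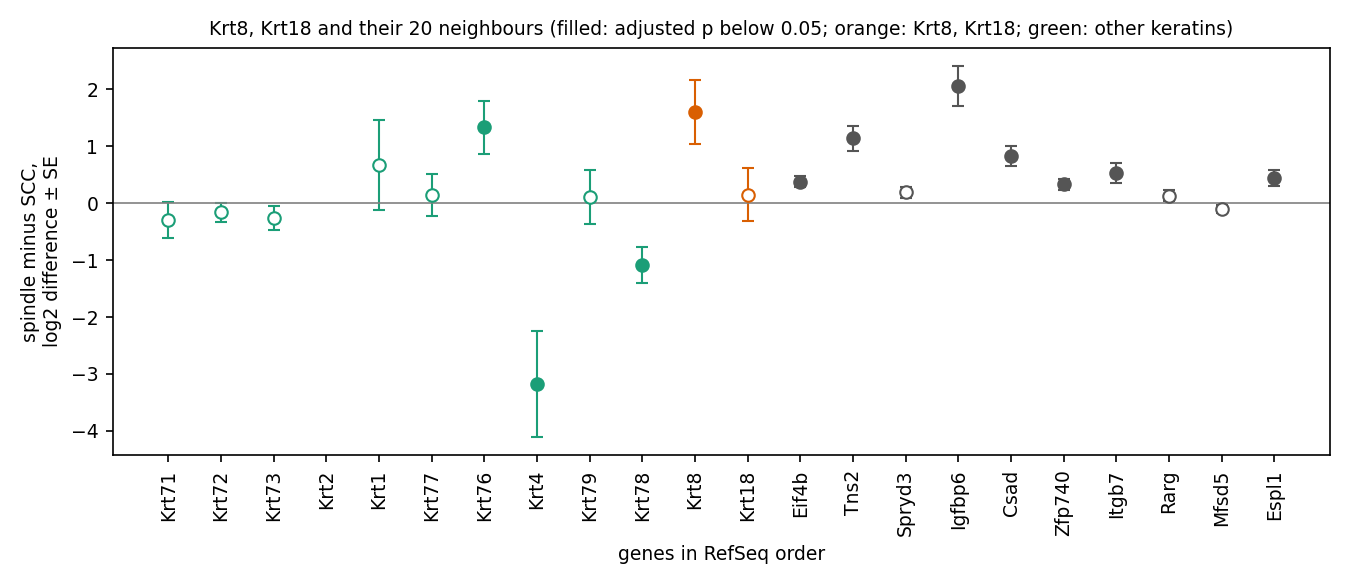
Spindle minus SCC log2 difference ± SE (vertical axis) of Krt8 and Krt18 (orange) and the 10 genes on either side in RefSeq order (other keratins green, other genes grey), with filled points for an adjusted p below 0.05; the horizontal axis is gene order, not distance, and Krt2 was too dim to test. Krt8 at 1.60 stands between Krt78 at -1.08 and Krt18 at 0.15.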

How the data were processed

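Tumor RNA was hybridised to Affymetrix whole-genome mouse arrays, 1 array for each of the 60 carcinomas. The authors deposited RMA values on the log2 scale, a method that subtracts background, makes the distributions of the arrays equal and combines the probes of a probe set. The submitters' processing notes name RMA, and its version is not given in the sources used here. A shift common to most genes is lost in this scaling. The median of an array was at least 4.43 and at most 4.56. The files hold no counts, and the number of arrays sets the precision. A single symbol was annotated for 34958 of 45101 probe sets (several for 932, none for 9211), and 34754 of these were found in the RefSeq table of GRCm38.p6, used for names and gene order only.

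For each of 18194 genes the probe set of highest mean was kept, and the 12791 genes that exceeded the median of the array on 8 or more arrays were tested. Groups came from the labels, numbers within groups follow accession order, and both tumors of a mouse were averaged. Groups were compared with limma 3.58.1 in R 4.3.3 (lmFit, eBayes, two-sided) with Benjamini-Hochberg adjustment and a threshold of 0.05, the 3 grades in a single fit. Correlations used 100000 two-sided permutations (Python 3.11.15, NumPy 2.4.6). The fit was tested on simulated data. The members, gene lists and alternatives were chosen with earlier results of these data known. Named genes were the members, the largest called changes of each list, the keratin lists, the 5 genes most correlated with each member and the 10 neighbours on each side of Krt8 and Krt18, and all keratin symbols were added after their values were seen. Alternatives were other filters, each tumor with the mouse as a random block, means over probe sets, a common 75th percentile, renewed quantile normalisation, trended robust eBayes, a SAM-type statistic (100 permutations), covariates, and leaving out arrays that stood apart.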

Additional observations from a re-analysis of the deposited data

Results flagged for a closer look

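Single mice far from the rest of their group were looked for with Dixon's test at 95% in 20 combinations of 4 keratins and 5 groups of 4 to 9 mice, and 3 were found, where chance gives about 1 in 20. The mouse SCC 21 had the lowest Krt18 of the 9 poorly differentiated SCCs, 7.99, with the next mouse at 10.01, while its Krt8 was 11.47. Among the 4 spindle mice labelled p53 mutant, spindle 6 had a Krt18 of 11.22, below the other 3 at 11.70 to 11.77, a gap that is large only against their narrow range. The 11.70 is the mean of 2 tumors of a mouse, spindle 8 at 11.22 and spindle 9 at 12.17. As a single tumor, spindle 8 was thus no higher than spindle 6 at this rounding, and the narrow range rests in part on the averaging. Among the 9 spindle mice not labelled p53 mutant, spindle 1 had a Krt19 of 5.06, above the next at 3.88, and its Krt7 of 9.30 was the highest of all spindle mice.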

How the results depend on the processing

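Of 444 differences of the 4 keratins under alternatives, 424 kept their direction and side of the threshold, 7 lost the call, 1 gained it and 12 changed sign, and the cause was not tested. With tumor_class as a covariate the spindle minus SCC difference was 1.07 for Krt8, -0.63 for Krt7 and -1.49 for Krt19, with 0 genes called. Without the mice of both classes, chosen after seeing the data as was the p53 covariate for papillomas, it was 1.20, -0.66 and -1.60, again with 0 genes called. Without the 3 arrays of largest Gapdh difference it was 1.46 for Krt8. Krt18 by p53 was 1.24 and called by the SAM-type statistic. The signs that changed were those of differences that were not called. Without the 2 near-identical arrays Krt7 was 0.083 for moderate minus well and 0.045 for p53. Without 4 alike arrays, chosen after seeing the data (the near-identical ones, SCC 21 and SCC 22), Krt7 was 0.20 for poor minus well, 0.19 for moderate minus well, 0.019 for poor minus moderate and 0.090 for papillomas. Krt7 by p53 was 0.095 with histology as a covariate, and Krt19 was 0.25 for poor minus well with the p53 covariate, -0.075 for papillomas without the Gapdh arrays and -0.022 as a slope on papilloma number. Leaving out each p53 mutant spindle mouse, the interaction of Krt8 ran between -0.16 and 0.62.

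Of 106 counts of genes called, 93 stayed within 1.5 times. Spindle minus SCC called 5620 with every probe set tested, and poor minus well 1 by the SAM-type statistic. For p53, against 36, the count was 10 without a filter, 13 with every tumor, 23 with means over probe sets, 13 with the 75th percentile, 14 in SCC only, 4 without the arrays against their sex label, 20 without the Gapdh arrays, and 8 without the 2 or the 4 alike arrays. Of 48 correlations, 36 were stable. With every tumor as a point, Krt7 with Krt19 in spindle tumors was 0.53, Krt8 with Krt18 was 0.57 in spindle tumors and 0.42 in SCC, and Krt8 with Krt7 in spindle tumors was 0.17. Without the 2 farthest mice, Krt7 with Krt19 in spindle mice was 0.29, Krt8 with Krt18 was 0.41 in spindle and 0.39 in SCC mice, Krt18 with Krt7 was -0.12 in spindle and -0.091 in SCC mice, and Krt18 with Krt19 was -0.022 in SCC mice. Without the arrays against their sex label, Krt8 with Krt19 was -0.53 and Krt18 with Krt7 -0.070 in SCC mice. No paired analysis was possible because the labels give no replicate numbers and the groups hold different mice. The random block for spindle minus poor SCC could not be fitted. The number of mice limits the precision, as for the 4 p53 mutant spindle mice.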
